A study of Danio rerio with 9 samples.

Results

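A set of 184 circular RNAs (circRNAs) took a smaller share of the circRNA reads in zebrafish caudal fins at 3 days after amputation than in intact fins. They were chosen from a table of 5578 circRNAs, of which 914 had at least 20 reads summed over 9 libraries. A member had at least 20 reads, a mean level at 3 days of at most 0.5 of the intact mean, and a level in every library at 3 days below that of every intact library. Those values chose the members, so the difference between 3 days and intact fin is a description here and carries no test. The libraries at 7 days took no part in the choice apart from the minimum of 20 reads, and the members were followed to that time.

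The fins came from wild-type fish. CK0dpa stands for intact fins, T3dpa for regenerating fins at 3 days post amputation (dpa) and T7dpa for regenerating fins at 7 dpa, with 3 libraries each. The regenerating groups are labelled as caudal fin removal and the intact group as control. The sources used here do not give strain, age or sex, nor how many fish went into a library. The p-values therefore rest only on the spread between these libraries, which may be technical. The main test (limma) took that spread mostly from circRNAs of similar level, so a circRNA's own scatter hardly enters its p-value. The tissue label was not set against marker genes here. The circRNA table lists a numbered ID and 9 values per circRNA. Host genes and circRNA sequences were not analysed here, so members are described by ID, level and time course.

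A circRNA forms when the splicing machinery joins the end of a downstream exon back to the start of an upstream one. The resulting ring has no free end, withstands exonucleases and tends to outlast the linear transcripts of its gene. Sequencing recognises it by reads that cross the back-spliced junction. A zebrafish caudal fin regrows after amputation through a wound epidermis, which covers the stump, and a blastema, a mass of dividing cells beneath it that later forms bone and connective tissue.

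Levels are in RPM, that is reads per 1000000 circRNA reads of a library. There were 14631 to 16262 circRNA reads in intact libraries, 12070 to 13443 at 3 dpa and 12427 to 13507 at 7 dpa, so 1 read stood for 61.5 to 82.9 RPM. Every level is a share of the circRNA reads of its library, so a gain or loss of circRNA as a whole leaves no trace in it. In these bulk samples, fewer cells of a type and less RNA per cell cannot be told apart.

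The members together held 17.7%, 17.3% and 17.0% of circRNA reads in the intact libraries, 4.64%, 5.08% and 4.21% at 3 dpa and 9.97%, 10.3% and 11.0% at 7 dpa. The libraries at 7 dpa lay above all those at 3 dpa and below all intact ones. The mean share stood at 17.3% ± 0.36 for intact fin, 4.64% ± 0.44 for 3 dpa and 10.4% ± 0.54 for 7 dpa (SD, n = 3 each). The share at 7 dpa was 60.2% of the intact share and 2.25 times the share at 3 dpa. Members were chosen as high in the intact libraries and low in the 3 dpa libraries, and such a choice by itself favours a value in between in libraries that did not take part.

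**Figure D1:**
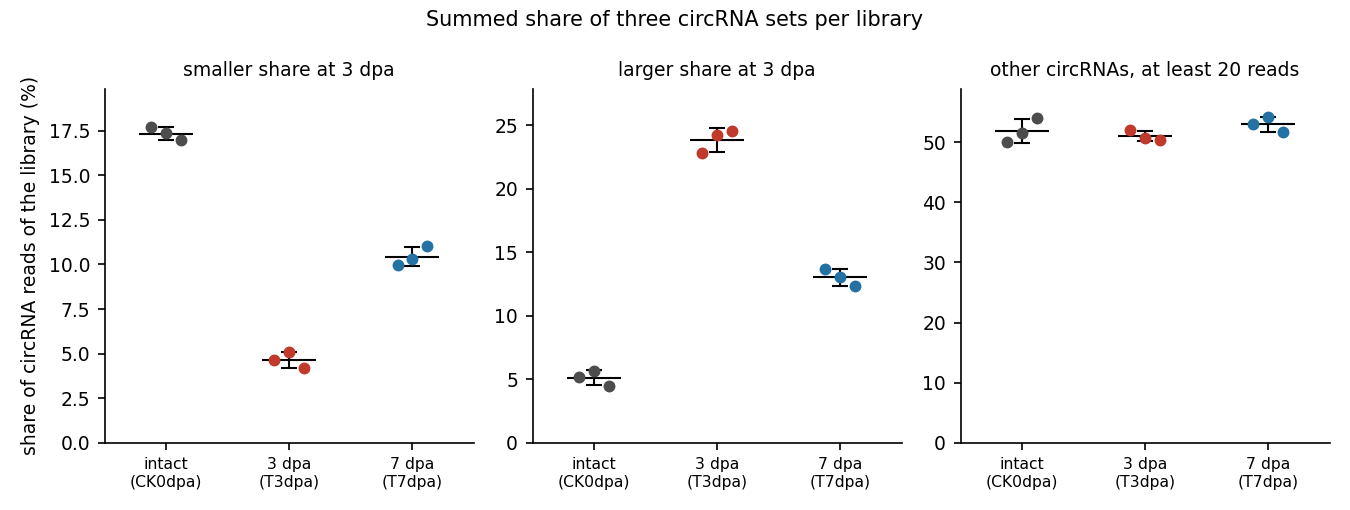
Summed share of the circRNA reads of each library (%, y axis) for the 184 members, for 104 circRNAs chosen by the opposite rule and for all other circRNAs with at least 20 reads, in intact, 3 dpa and 7 dpa fins. Points are libraries, and lines with bars give the mean and SD (n = 3); the members hold 17.0% to 17.7%, 4.21% to 5.08% and 9.97% to 11.0%.

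The mirror image was seen in the 104 circRNAs with a larger share at 3 dpa, chosen by the same thresholds turned round. They held 5.12% ± 0.57 of reads for intact fin, 23.8% ± 0.93 for 3 dpa and 13.0% ± 0.67 for 7 dpa (SD, n = 3 each). The remaining circRNAs with at least 20 reads held 51.9% ± 2.0, 51.0% ± 0.89 and 53.0% ± 1.3 at these times. Both chosen sets thus stood between their intact and 3 dpa shares at 7 dpa, as the choice of both favours, and no test of a difference between the sets was made.

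All 184 members had a read in every intact library, as the rule required, and all therefore passed the filter for testing (a read in at least 3 libraries) through the intact group. At 3 dpa 133, 124 and 129 members had a read, and at 7 dpa 161, 169 and 165 did. When each library was reduced to 12070 reads, the expected numbers were 183 ± 0.23 for intact fin, 127 ± 6.4 for 3 dpa and 163 ± 5.0 for 7 dpa (SD, n = 3 each). The median member had 22 reads summed over the intact libraries, 4 over those at 3 dpa and 10 over those at 7 dpa.

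Most members were sparse, and a few carried much of the share. The most abundant member held 12.8% of all member reads in intact fin, the top 5 held 25.8% and the top 10 held 34.3%. Of the 10 most abundant circRNAs of intact fin 1 was a member, as were 12 of the top 50 and 62 of the top 200. Members made up 184 of the 914 circRNAs with at least 20 reads. The rule chose them as high in the same intact libraries that give this ranking, so nothing is read from these counts.

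**Figure D2:**
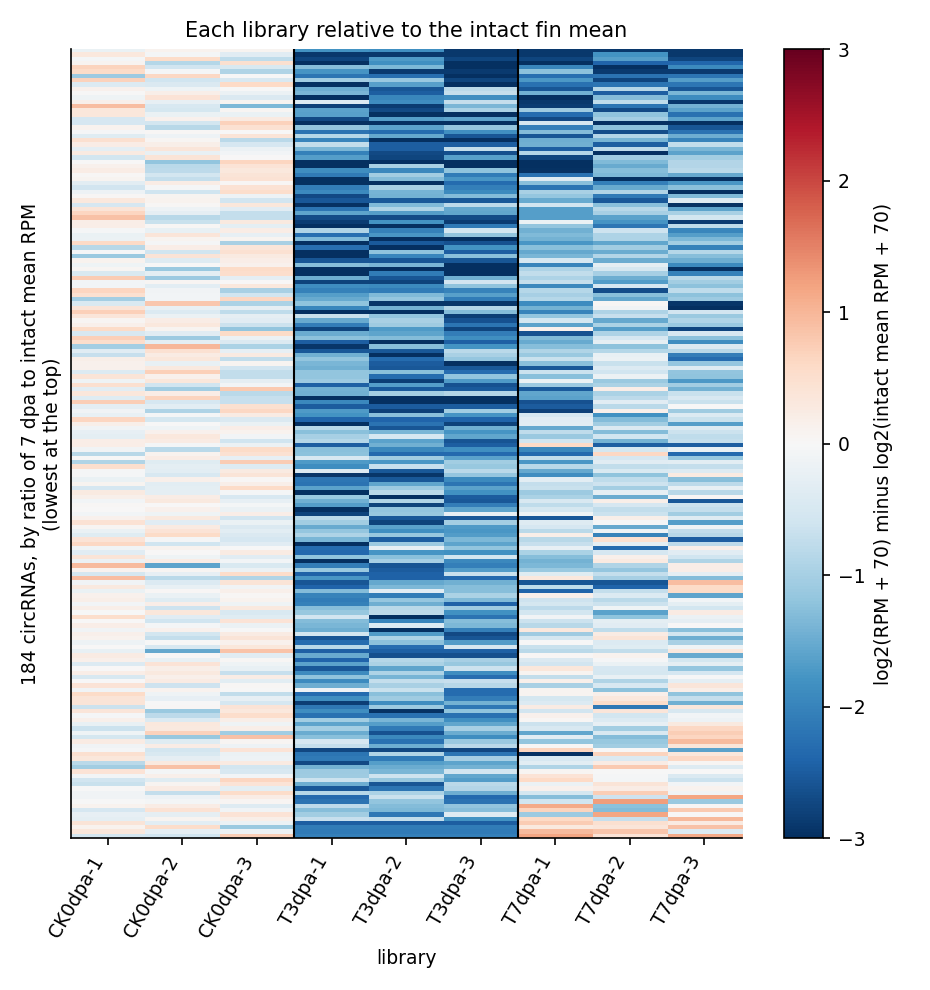
Levels of all 184 members (rows, lowest ratio of 7 dpa to intact mean at the top) in the 9 libraries (columns), as log2(RPM + 70) minus log2 of the intact mean plus 70. Blue is lower and red higher than the intact mean; the 3 dpa columns are blue by the choice of members, and the 7 dpa columns grade from dark blue at the top to pale red at the bottom, where the rows are the 19 members whose 7 dpa mean exceeded the intact mean.

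novel_circ_000913 was the most abundant member. It had 16095, 24843 and 25972 RPM in intact fin, 9623, 8480 and 4557 RPM at 3 dpa and 13400, 19206 and 21968 RPM at 7 dpa. The libraries at 7 dpa lay above all those at 3 dpa and overlapped the intact ones. Among all circRNAs its mean level held rank 2 in intact fin, rank 25 at 3 dpa and rank 2 at 7 dpa. Its mean was 22304 ± 5406 RPM in intact fin, 7553 ± 2657 RPM at 3 dpa and 18192 ± 4373 RPM at 7 dpa (SD, n = 3 each). At 7 dpa it rose relative to 3 dpa by 1.30 on the log2(RPM + 70) scale (SE 0.21, limma adjusted p = 2.48e-06), and against intact fin its difference of -0.29 did not pass the test (limma adjusted p = 0.724). For the rise from 3 dpa, edgeR on recovered reads gave an adjusted p of 0.0201, and limma with a pseudocount of 1 RPM gave 0.473. The 3 dpa libraries chose this circRNA as low, which favours such a rise. Its libraries at 7 dpa also scattered beyond counting error, which hardly enters the limma p-value.

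The next 4 members by intact level differed from each other in how far they stood from intact fin at 7 dpa. novel_circ_001668 had 5259, 10208 and 4989 RPM in intact fin, 3558, 3050 and 2071 RPM at 3 dpa and 7700, 1653 and 3782 RPM at 7 dpa. Its 7 dpa libraries spread over the whole range, from below every 3 dpa library to above 2 of the 3 intact ones. novel_circ_003704 had 7351, 8363 and 4238 RPM in intact fin, 1536, 3124 and 1408 RPM at 3 dpa and 2147, 3385 and 3058 RPM at 7 dpa. All of its 7 dpa libraries lay below the lowest intact one, and they overlapped those at 3 dpa. novel_circ_001114 had 5766, 3936 and 5468 RPM in intact fin, 1132, 2232 and 1988 RPM at 3 dpa and 3258, 2834 and 4748 RPM at 7 dpa, all of them above the 3 dpa libraries and the highest within the intact range. novel_circ_003239 had 3612, 4428 and 3486 RPM in intact fin, 890, 1339 and 663 RPM at 3 dpa and 2665, 2440 and 3138 RPM at 7 dpa. Here the 3 groups did not overlap, and the 7 dpa libraries stood in the middle.

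**Figure D3:**
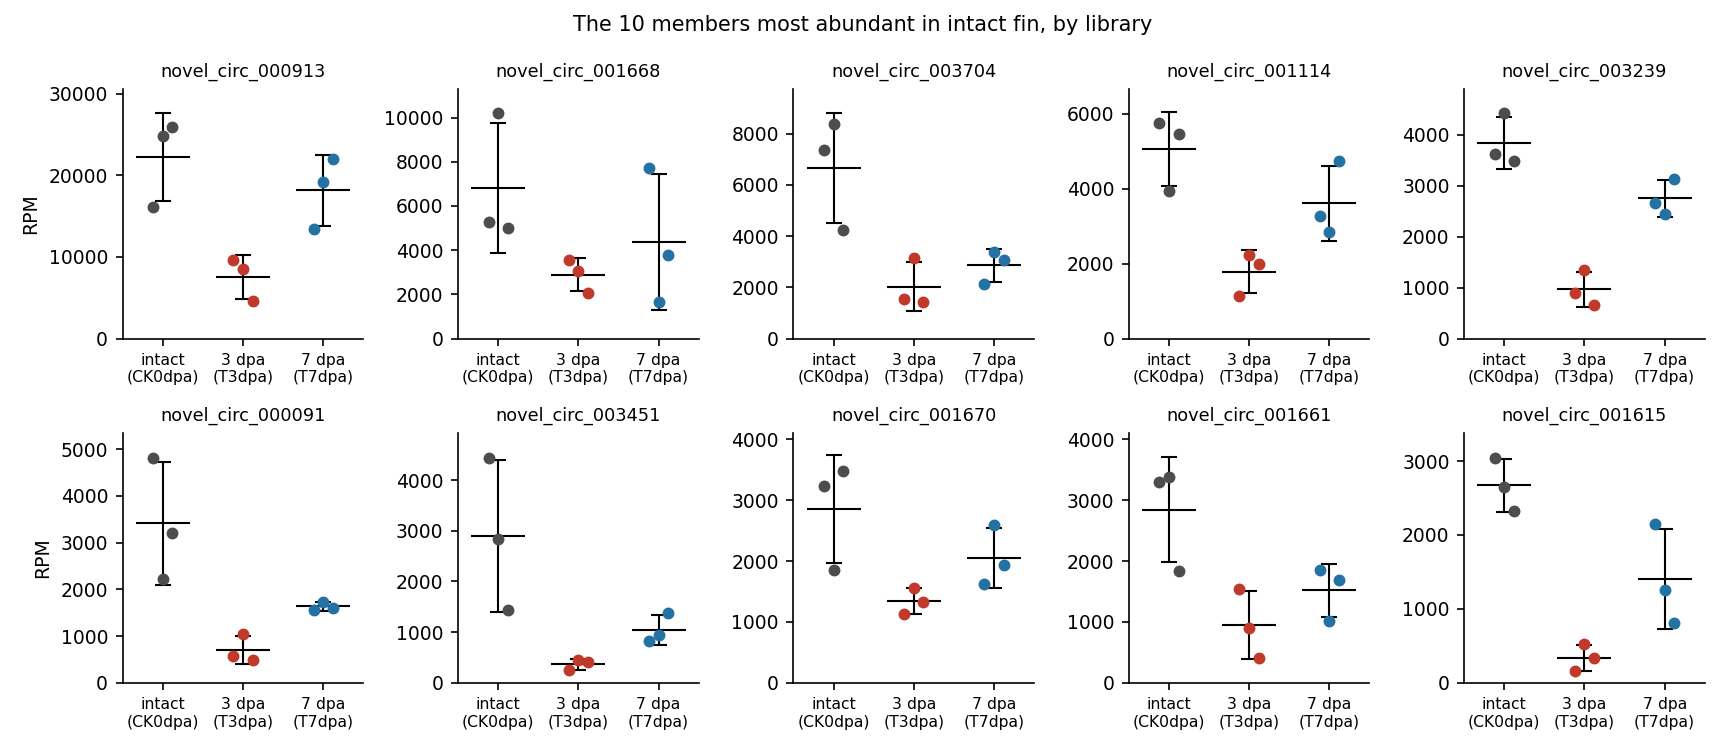
RPM by library (y axis, linear, from 0) for the 10 members with the highest intact mean, in intact, 3 dpa and 7 dpa fins; points are libraries, and lines with bars are the mean and SD (n = 3). The 7 dpa points stand between the other groups for novel_circ_003239, novel_circ_000091, novel_circ_003451 and novel_circ_001615. They overlap the intact range for novel_circ_000913, novel_circ_001668, novel_circ_001114, novel_circ_001670 and novel_circ_001661, and lie below it for novel_circ_003704.

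The other 5 of the 10 most abundant members had intact means of 2670 to 3414 RPM. novel_circ_000091 had 76, 36 and 47 reads in intact fin, 7, 14 and 6 at 3 dpa and 21, 22 and 20 at 7 dpa. Its level at 7 dpa was 47.8% of the intact mean. novel_circ_003451 had 70, 46 and 21 reads in intact fin, 3, 6 and 5 at 3 dpa and 11, 12 and 17 at 7 dpa, and its intact libraries differed more than 3-fold among themselves in RPM (4436, 2829 and 1435). novel_circ_001615 had 48, 43 and 34 reads in intact fin, 2, 7 and 4 at 3 dpa and 29, 16 and 10 at 7 dpa. In each of these 3 circRNAs the groups did not overlap in RPM. The 7 dpa means of novel_circ_001670 and novel_circ_001661 were 71.9% and 53.6% of intact, and their 7 dpa libraries overlapped the intact group.

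Across all members the 7 dpa mean was a median of 53.7% of the intact mean (quartiles 36.2% and 74.3%, range 0% to 223%), while the 3 dpa mean was a median of 21.0% (0% to 48.8%, capped by the rule). The 7 dpa mean lay between the 3 dpa and intact means for 155 of 184 members, above the intact mean for 19 and at or below the 3 dpa mean for 10. The median log2 difference of 7 dpa from intact fin was -0.83 over the members and -0.01 over all 3213 circRNAs tested (0.02 with TMM factors or with quantile normalization), and that of 7 dpa from 3 dpa was 0.90 and 0.16. These medians include the shift that the choice of members favours.

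**Figure D4:**
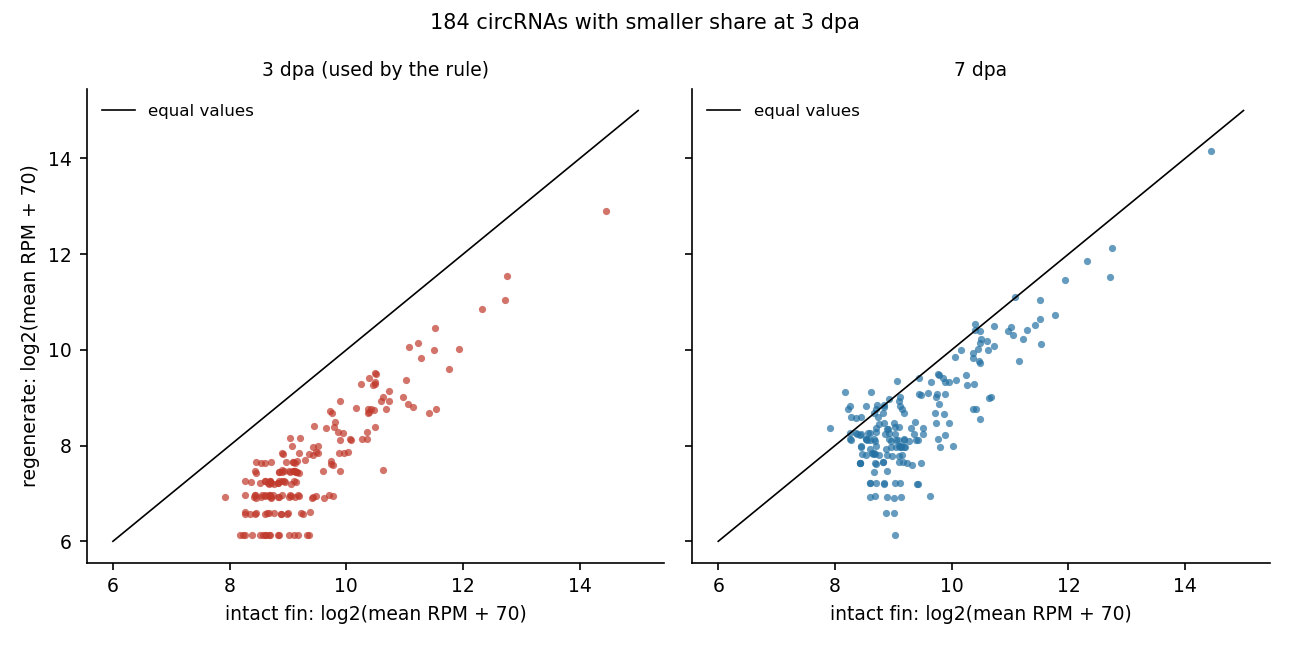
Mean level of each of the 184 members at 3 dpa (left) and 7 dpa (right) on the y axis against its intact mean on the x axis, both as log2(RPM + 70); the line marks equal values. All points lie below the line at 3 dpa because the rule requires it, and 19 lie above it at 7 dpa.

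All 3 libraries at 7 dpa lay below all intact libraries for 69 members (37.5%), against 5.98% of the 3213 circRNAs tested and 9.96% of the 914 with at least 20 reads. All lay above every 3 dpa library for 53 members (28.8%), against 5.01% of those tested and 9.52% of those with at least 20 reads. All 7 dpa libraries lay above all intact ones for 0 members, against 6.1% of those tested and 9.41% of those with at least 20 reads. All lay below every 3 dpa library for 0 members, against 4.3% and 6.35%. At 7 dpa 13 members were thus clear of both groups, below every intact and above every 3 dpa library. Another 56 were clear of the intact group only, 40 of the 3 dpa group only, and 75 overlapped both. These classes were not counted over all circRNAs. These shares cannot be read as an effect of time alone, since the rule raised the intact side and lowered the 3 dpa side of each member.

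The placing of members at 7 dpa differed with their depth. Of the 33 members averaging 20 reads or more per intact library, 7 stood clear of both groups at 7 dpa, as did 4 of the 33 with 10 to below 20 reads and 2 of the 118 with fewer. The share clear of both groups was not counted over other circRNAs of like depth. Groups with few reads overlap more readily by counting error, so no effect of depth on the members is read from these counts. The median 7 dpa level was 63.6%, 53.5% and 49.9% of intact in these 3 bands, from the most to the least abundant. The median 3 dpa level, capped by the rule, was 29.8%, 21.2% and 19.1%. With reads summed over each band the 7 dpa level was 65.1%, 52.0% and 54.7% of intact, so the 2 measures did not order the bands alike. Of the 19 members whose 7 dpa mean exceeded the intact mean, 16 were in the sparsest band and 3 in the most abundant one. Members with few intact reads could reach the minimum of 20 reads through 7 dpa, as novel_circ_001860 did with 8 intact reads and 10 at 7 dpa. The minimum by itself thus favours a 7 dpa mean above intact in the sparsest band.

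The test across all circRNAs was limma on log2(RPM + 70), two-sided, with a call at a Benjamini-Hochberg adjusted p under 0.05. For 3 dpa against intact fin it called 63 of 184 members lower, against 2.21% of all tested. In that contrast, which chose the members and from which nothing is read, 11.1% of all tested and 21.2% of those with at least 20 reads had every 3 dpa library below every intact one. For 7 dpa against intact fin it called 5 members lower (2.72%), against 0.187% of all tested, and 0 higher, against 0.467%. At an unadjusted p under 0.05 in limma, 53 members were lower (4.64% of all tested were) and 0 higher (3.86%). On recovered reads edgeR called 0 members and 0% of all tested lower in this comparison, and at an unadjusted p under 0.05 it had 35 members lower (19.0%), against 3.27% of all tested. DESeq2 gave an adjusted p to 52 members and called 1 lower (1.92%), against 0.35% of the 286 circRNAs with one, and it called 11 of those 286 in either direction. At its unadjusted p under 0.05, 25 members were lower (13.6%), against 1.21% of all tested. For 7 dpa against 3 dpa limma called 6 members higher (3.26%), against 0.311% of all tested, and 0 lower, against 0.342%. Of these 6, novel_circ_001122 and novel_circ_001718 reached the minimum of 20 reads only through the 7 dpa libraries. At an unadjusted p under 0.05 in limma, 58 members were higher (5.45% of all tested were) and 0 lower (2.37%). In this comparison edgeR called 6 members higher, against 0.249% of all tested. DESeq2 called 2 of 52 members higher (3.85%), against 0.699% of the 286 circRNAs with an adjusted p, and 11 of those 286 in either direction. Because the groups at either end chose the members, calls of this direction are favoured in both comparisons.

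The 6 members called higher at 7 dpa than at 3 dpa differed in how near they came to intact fin. novel_circ_000965 had 20, 25 and 15 reads in intact fin, 2, 3 and 8 at 3 dpa and 19, 19 and 17 at 7 dpa. Its 7 dpa level was 111% of intact, and its log2 difference from 3 dpa was 2.02 (SE 0.46, limma adjusted p = 0.00499). novel_circ_001718 had 7, 4 and 4 reads in intact fin, 0 in each 3 dpa library and 8, 6 and 5 at 7 dpa. Its difference from 3 dpa, whose reads of 0 chose it, passed the test (limma adjusted p = 0.00757). novel_circ_001122 had 2, 2 and 6 reads in intact fin, 0 in each 3 dpa library and 8, 4 and 7 at 7 dpa, the highest ratio of 7 dpa to intact mean of any member at 223% (limma adjusted p = 0.0108 against 3 dpa). Its intact value rests on 10 reads, with an exact 95% Poisson interval of 4.80 to 18.4, and its difference from intact fin did not pass the test (limma adjusted p = 0.700). Both novel_circ_001718 and novel_circ_001122 reached the minimum of 20 reads only through the 7 dpa libraries. Nothing is therefore read from either call or from the 223%.

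novel_circ_003239, with levels given above, had a log2 difference of 1.49 from 3 dpa (SE 0.35, limma adjusted p = 0.00712). novel_circ_001615 had one of 1.85 (SE 0.43, limma adjusted p = 0.00578). Both stood below all intact libraries at 7 dpa. Calls against 3 dpa were lost under 1 to 3 each of the alternatives that gave an adjusted p. DESeq2 gave none to novel_circ_001122 or novel_circ_001718. Without replicate 1 of 7 dpa the count of members called was 3.

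The 5 members called lower at 7 dpa than in intact fin had between 21 and 314 reads over the intact libraries. For novel_circ_003704 the log2 difference was -1.16 (SE 0.32, limma adjusted p = 0.0376). novel_circ_000267 had 21, 23 and 20 reads in intact fin, 3, 3 and 4 at 3 dpa and 7, 2 and 3 at 7 dpa, so that both regenerating groups were apart from intact fin and overlapped each other (log2 difference -2.05 at 7 dpa, SE 0.56, limma adjusted p = 0.0376). novel_circ_003700 had 12, 6 and 15 reads in intact fin, 0, 2 and 0 at 3 dpa and 0, 1 and 1 at 7 dpa (log2 difference -2.66 at 7 dpa, SE 0.74, limma adjusted p = 0.0448). It reached the minimum of 20 reads only through the intact libraries, which chose it as high, so nothing is read from its call. novel_circ_001935 had 6, 8 and 7 reads in intact fin, 1, 1 and 0 at 3 dpa and was the member with no read at 7 dpa. It passed the low-value filter only through the intact libraries, which chose it as high, so nothing is read from its call (limma adjusted p = 0.0296). novel_circ_002590 had 26, 15 and 31 reads in intact fin, 1, 8 and 5 at 3 dpa and 16, 1 and 1 at 7 dpa, where replicate 1 reached the intact range (log2 difference -2.35, SE 0.55, limma adjusted p = 0.00656). With edgeR its adjusted p was 0.150.

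The number of members called lower fell whichever library of intact fin or 7 dpa was left out. The count was 0 without replicate 1 of intact fin or without replicate 3 of 7 dpa. At an unadjusted p under 0.05 in limma, 32 and 47 members were then lower, against 53 with all libraries. The share over all tested was not counted there. The count of calls was 1 without replicate 2 or 3 of intact fin or replicate 2 of 7 dpa, and 4 without replicate 1 of 7 dpa. Over all circRNAs tested, calls in either direction fell too, from 21 to 14 without any one intact library. They fell to 18, 15 and 12 without replicates 1, 2 and 3 of 7 dpa. Whether a particular library or the smaller group lowered the counts was not tested. Over the alternatives, the limma, edgeR or DESeq2 adjusted p ran from 0.0086 to 0.227 for novel_circ_000267, from 0.0184 to 0.296 for novel_circ_001935 and from 7.94e-05 to 0.281 for novel_circ_002590. It ran from 0.0127 to 0.695 for novel_circ_003700 and from 0.000526 to 0.408 for novel_circ_003704.

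At the 7 dpa end, among members averaging at least 10 reads over the intact libraries, the highest ratios of 7 dpa to intact mean were those of novel_circ_000965, novel_circ_000293, novel_circ_004122, novel_circ_004198 and novel_circ_002306, at 111%, 102%, 101%, 92.9% and 88.5% of the intact mean. novel_circ_000293 had 31, 38 and 29 reads in intact fin, 12, 18 and 8 at 3 dpa and 38, 26 and 19 at 7 dpa. novel_circ_004122 had 27, 20 and 13 reads in intact fin, 7, 6 and 10 at 3 dpa and 18, 16 and 16 at 7 dpa. In both, every 7 dpa library was above every 3 dpa one in RPM and the intact group was overlapped. The lowest were novel_circ_003700, novel_circ_004724, novel_circ_004070, novel_circ_000910 and novel_circ_000267, at 7.39%, 19.0%, 20.3%, 21.9% and 22.3% of the intact mean, with all their 7 dpa libraries below the intact ones. novel_circ_000910 had 14, 7 and 17 reads in intact fin, 4, 3 and 4 at 3 dpa and 2, 4 and 1 at 7 dpa, one of the 10 members whose 7 dpa mean did not exceed the 3 dpa mean. novel_circ_004724 had 30, 11 and 5 reads in intact fin, so its intact mean rested mainly on replicate 1.

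In all, 17 members, with novel_circ_001122 and novel_circ_001718 among them, had no read in any 3 dpa library, against 10 to 28 reads summed over intact fin. These reads chose the members and are given as a description. All 17 had reads at 7 dpa, between 1 and 19, and 11 had a read in every 7 dpa library. With no read at 3 dpa, those with fewer intact reads than the read minimum needed reads at 7 dpa to be members. Their reads at 7 dpa were thus required by the rule, and nothing is read from these counts. In 4 of the 17 the 7 dpa mean exceeded the intact mean, and all 4 had fewer intact reads than the minimum. novel_circ_000380 had 4, 2 and 6 reads in intact fin and 4, 2 and 3 at 7 dpa. novel_circ_000727 had 12, 3 and 3 reads in intact fin and 1, 1 and 3 at 7 dpa. Both novel_circ_000380 and novel_circ_000727 reached the read minimum only through the 7 dpa libraries. By contrast, novel_circ_000017 had 6, 6 and 14 reads in intact fin and 5, 0 and 0 at 7 dpa, and novel_circ_001476 had 9, 7 and 5 in intact fin and 0, 1 and 0 at 7 dpa. These 17 thus held both members near intact level at 7 dpa and members still nearly undetected. The read minimum favoured the former, and for those such as novel_circ_000380 it required reads at 7 dpa.

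One stretch of ID numbers held many members. IDs from novel_circ_000264 to novel_circ_000283 number 20, and 17 of them were members. The sources used here do not say what the ID numbers stand for, and whether these circRNAs share a host gene or reads was not tested. This stretch was picked after the members were seen and gets no test. The 17 together had 159, 158 and 207 reads in intact fin, 28, 46 and 23 at 3 dpa and 48, 68 and 57 at 7 dpa. Their summed share was 1.13% ± 0.25 for intact fin, 0.253% ± 0.079 for 3 dpa and 0.450% ± 0.090 for 7 dpa (SD, n = 3 each), with no overlap of the 7 dpa libraries with either other group. Of the other 3, novel_circ_000268 and novel_circ_000269 had 2 reads each, all in intact fin. novel_circ_000274 had 8, 5 and 7 reads in intact fin, 1, 5 and 2 at 3 dpa and 1, 10 and 0 at 7 dpa, and missed the rule because its groups overlapped.

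**Figure D5:**
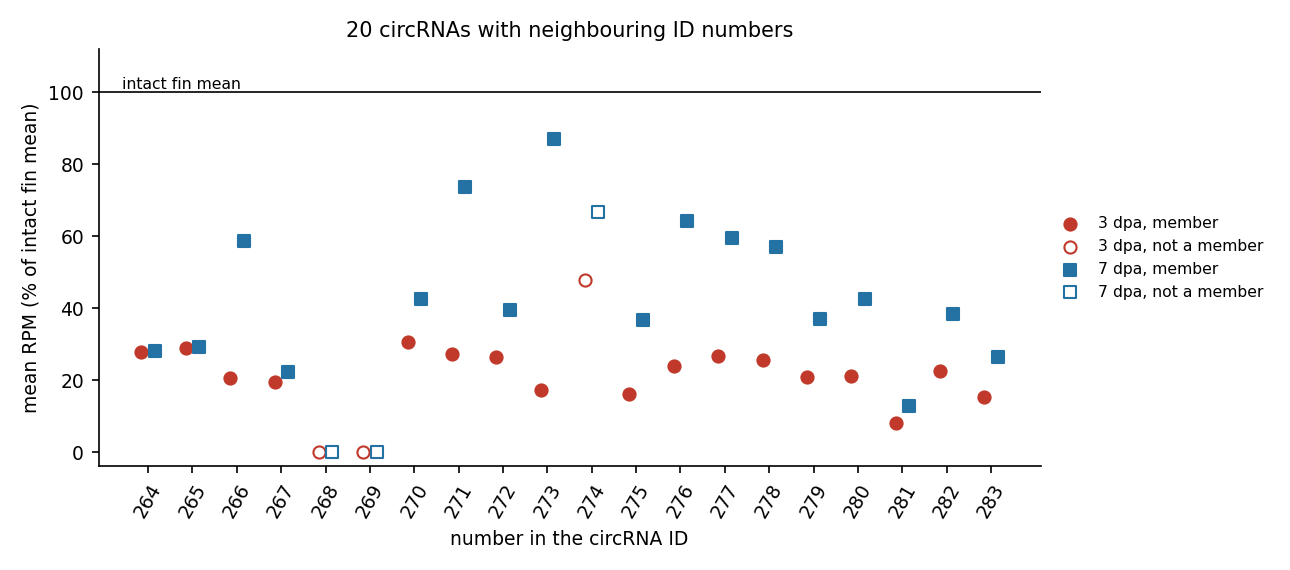
Mean RPM at 3 dpa (circles) and 7 dpa (squares) as a percentage of the intact mean (y axis) for the 20 circRNAs of this stretch (x axis, the number in the ID). Filled symbols are the 17 members and open symbols the other 3; every 3 dpa and 7 dpa mean lies below the intact mean, and the members range from 12.7% to 87.1% at 7 dpa.

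Within the stretch the members differed in their 7 dpa level, from 12.7% of intact for novel_circ_000281 to 87.1% for novel_circ_000273, with a median of 39.4%. Neighbours novel_circ_000264 and novel_circ_000265 both had 3, 8 and 3 reads at 3 dpa, and they had 3, 6 and 5 against 3, 5 and 6 at 7 dpa. Their intact reads were less alike, with 21, 14 and 25 against 13, 20 and 25. Elsewhere novel_circ_001457 and novel_circ_001458 had 2, 2 and 0 reads at 3 dpa and 1, 0 and 1 at 7 dpa in both. Such pairs may not be independent members. Of the 184 members, 35 had another member at a neighbouring ID number, which left 161 when each run of consecutive numbers was counted as 1 member. These were 19.0% of the members, against 32.7% of the circRNAs with a larger share at 3 dpa and 44.1% of the 914 with at least 20 reads, each counted within its own set. A larger set holds more neighbours, which bears on the comparison with the 914. It does not account for the higher share in the set with a larger share at 3 dpa, which is smaller at 104. Members were thus not shown to carry neighbouring numbers more often than others.

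The spread between libraries at 7 dpa was set beside that of the other circRNAs with at least 20 reads. The measure was the chi-square per degree of freedom of a circRNA's reads over the 3 libraries. For counting error alone it averages about 1, with a median below 1. Its median was 1.13 over the 183 members with a read at 7 dpa and 1.43 over the 730 others, so both sets spread beyond counting error. The chi-square per degree of freedom exceeded 3 in 20.2% of members and 20.8% of the others. The highest values were in novel_circ_001668, with 104, 21 and 47 reads at 7 dpa, and in novel_circ_000913, with 181, 244 and 273. In sparse members the 7 dpa mean sometimes came from a single library, as in novel_circ_001060 with 0, 0 and 9 reads. Replicate 1 had the highest RPM of the 3 libraries at 7 dpa in 24.0% of members, against 37.7% and 38.3% for replicates 2 and 3. Among the other circRNAs these shares were 33.8%, 33.2% and 33.0%. A single read stood for 74.0, 78.7 and 80.5 RPM in replicates 1, 2 and 3, so equal read counts placed replicate 1 lowest. How far this weighed in sparse members was not tested.

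Just inside the ratio limit were novel_circ_004198, novel_circ_000875 and novel_circ_004122, with 3 dpa means of 48.8%, 48.1% and 48.1% of intact. Just outside were novel_circ_001097, novel_circ_001724 and novel_circ_004410 at 50.4%, 51.7% and 54.4%. At 7 dpa the 3 inside stood at 92.9%, 56.1% and 101% of intact and the 3 outside at 84.0%, 82.9% and 79.9%. At the read minimum, 10 members had exactly 20 reads, and novel_circ_000869, novel_circ_001069 and novel_circ_001124 are the first of them by ID. Just below it, novel_circ_000307, novel_circ_000955 and novel_circ_001599 are the first by ID of those with 19 reads that met the other conditions. A further 163 circRNAs met the ratio and the order of libraries with fewer than 20 reads, 108 with at least 20 reads met the ratio while their groups overlapped, and 10 did not overlap but had a ratio above 0.5. Of the members, 64 had fewer than 30 reads and 76 had at least 40.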

How the data were processed

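Libraries were made from total RNA by fragmentation and random priming with dUTP in the second strand, per the labels' protocols. The deposited circRNA table gives RPM per circRNA and library. Each library sums to 1000000 and all values (100%) are whole multiples of its smallest value within 0.001 reads, so reads were recovered by division and rounding. Without stating what each did, the submitters' processing notes list RSEM, edgeR, cutadapt and TopHat2 2.0.3.12. They name hg38, a human build, for these zebrafish samples. A circRNA caller and a zebrafish build are not given in the sources used here. The mRNA and lncRNA tables were not used here.

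limma 3.58.1 in R 4.3.3 (empirical Bayes, trend and robust) was fitted on log2(RPM + 70) over the 3213 circRNAs above 0 in at least 3 libraries, with all 9 libraries in 1 model, no covariate and 3 contrasts. The pseudocount of 70 RPM is about 1 read. Fold changes on this scale understate changes of sparse circRNAs. The SE followed the mean level more than a circRNA's own scatter. For 7 dpa against intact fin it was 0.554 for novel_circ_002590 and 0.556 for novel_circ_000267. Their reads at 7 dpa were 16, 1 and 1 and 7, 2 and 3. edgeR 4.0.16 and DESeq2 1.42.0 on recovered reads were alternatives, with other pseudocounts, filters, scalings and left-out libraries; for 3 dpa against intact fin they called 106 and 43 circRNAs, against 122 with limma. Summaries used Python 3.11.15. Poisson intervals cover counting error only.

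The members, named circRNAs and alternatives were chosen with earlier results of these data known. Named are the 10 members with the highest intact mean, the 5 with the lowest ratio of 3 dpa to intact (17 tied at 0, the first by ID), the 5 highest and 5 lowest ratios of 7 dpa to intact among members averaging at least 10 reads over the intact libraries, all members called at 7 dpa, and 3 on each side of the thresholds (ties by ID). Others were named after their values were seen. No 2 libraries of a group agreed within sampling noise (chi-square per degree of freedom 2.29 to 3.53). The main model did not pair libraries by the replicate numbers that the groups share.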

Additional observations from a re-analysis of the deposited data

Results flagged for a closer look

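The direct limma test of 7 dpa against 3 dpa called 6 members, and each is listed for that reason. The log2 difference of 7 dpa from 3 dpa was 1.30 for novel_circ_000913, 1.49 for novel_circ_003239, 1.85 for novel_circ_001615, 2.02 for novel_circ_000965, 2.96 for novel_circ_001122 and 2.98 for novel_circ_001718. All 3 libraries at 7 dpa lay above all 3 dpa libraries in each of them. The 3 dpa libraries chose the members as low, which favours such a rise. Over the alternatives that gave an adjusted p (19 or 20 each), its range was 1.64e-08 to 0.473 for novel_circ_000913, 0.000439 to 0.127 for novel_circ_003239, 0.00214 to 0.208 for novel_circ_001615, 0.00218 to 0.0712 for novel_circ_000965, 0.0103 to 0.129 for novel_circ_001122 and 0.0077 to 0.105 for novel_circ_001718. The call of novel_circ_000913 was lost under 1 of 20 alternatives, a pseudocount of 1 RPM, with an adjusted p of 0.473. The last 2 circRNAs had no read at 3 dpa, so their fitted values depend on the pseudocount. They also reached the minimum of 20 reads only through the 7 dpa libraries, so nothing is read from their calls.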

How the results depend on the processing

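No count, share or member called at 7 dpa reversed its direction in the settings run, and other named members were not followed through them. By mean RPM 19 members stood above intact fin at 7 dpa, and by log2 difference 15 did. The median of all tested circRNAs for 7 dpa against intact fin, -0.01, was 0.02 with TMM factors and 0.02 with quantile normalization. Members called at 3 dpa against intact fin numbered 63, with 33 at a pseudocount of 1 RPM and 13 with DESeq2. They numbered 30 to 69 without single libraries (30 and 40 without replicates 1 and 3 of intact fin). That contrast chose the members, so nothing is read from these counts. At 7 dpa against intact fin the 5 calls became 2 with a pseudocount of 1 RPM, 1 with no filter, 3 with at least 20 reads, 2 with TMM factors, 0 with edgeR and 1 with DESeq2, and 0 to 5 without single libraries. At 7 dpa against 3 dpa the 6 calls became 2 with DESeq2, and 3 to 7 without single libraries (3 without replicate 1 of 7 dpa). Choosing members again gave 280 with at least 10 reads and 76 with at least 40, 171 with TMM factors, 164 at a ratio of at most 0.4 and 203 to 231 without single libraries. Over the whole table calls moved by more than 1.5 times as well: for 3 dpa against intact fin 122, with 80 at a pseudocount of 1 RPM and 43 with DESeq2.

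The summed share of the members in intact fin was 16.7% with TMM factors, and without the top 5 members the shares were 12.9%, 3.12% and 7.25% for intact, 3 dpa and 7 dpa fins. Without the 17 members from novel_circ_000264 to novel_circ_000283 the intact share was 16.2%. With 1 member per run of ID numbers it was 16.0% in intact fin and 9.82% at 7 dpa. Leaving out single libraries gave 17.2% to 17.5%, 4.43% to 4.86% and 10.1% to 10.7%. The 155 members with a 7 dpa mean between the other means were 138 to 154 without single libraries and 152 with TMM factors. Settings on ID runs, the stretch and this count were chosen after seeing the data. Quantile normalization moved the median of all tested circRNAs at 3 dpa to -0.0892, against -0.216 as deposited, and that of members to -1.67, against -1.73. With the replicate block the calls were 61, 4 and 6, for 3 dpa and 7 dpa against intact fin and 7 dpa against 3 dpa. Same-numbered libraries did not deviate together (correlations -0.0364 to 0.0248), which over mostly sparse circRNAs does not show that they were unpaired. The cause of these shifts was not tested. Depth limits sparse members most, where 1 read stands for 61.5 RPM or more.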
